A study of Mus musculus with 8 samples.

Results

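Mitochondrial ribosomal proteins are the nuclear-encoded proteins of the mitochondrial ribosome, and 77 genes for them were followed among the 52661 genes of the series. They were chosen by symbol, as genes with at least 1 protein-coding transcript whose symbol begins with Mrpl or Mrps and a digit, with pseudogene symbols left out. By symbol, 48 belonged to the large subunit (Mrpl) and 29 to the small subunit (Mrps). The cells were intraepithelial lymphocytes, immune cells of the intestinal epithelium, from C57BL/6 mice, sorted by flow cytometry for the leukocyte surface protein CD45. There were 4 osteopontin libraries, from sorted cells incubated for 24 h at 37 °C with 2 µg/ml recombinant osteopontin, and 4 libraries called null, from cells incubated alike but with none added. The medium was RPMI with 10% serum in both. Osteopontin is a secreted phosphoprotein that binds integrins and CD44, and the comparison asks how exposure to it changed the transcriptome of these cells. Both groups have libraries named 1, 2, A and B. The labels give no genotype beyond the strain, no age, and no statement of whether each library had its own mouse or culture. The p-values therefore rest on a spread among libraries that may be technical only.

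The mitochondrial ribosome translates the few messages encoded by mitochondrial DNA, all of which specify hydrophobic subunits of the respiratory chain and ATP synthase. Its ribosomal RNAs are transcribed inside the organelle, whereas every one of its proteins is made in the cytosol from nuclear genes and imported. Lymphocytes draw on respiration at rest and enlarge their mitochondrial protein synthesis when they are activated. A few symbols do not match the place of the protein. In structures of the mammalian ribosome the products of Mrps18a and Mrps30 sit in the large subunit, and the product of Mrps36 is known mainly as a component of the 2-oxoglutarate dehydrogenase complex.

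The libraries held 49108969 to 71399847 estimated reads, and the limit set by counting error, 3 reads, was worth 0.0420 to 0.0611 CPM (reads of a gene scaled to a common library size). Each of the 77 genes passed the filter on low counts, with no fewer than 211 reads in any library. T cell markers were abundant, as the summed level of 16 of them was 8789 to 9551 CPM in osteopontin libraries and 8559 to 9393 CPM in null libraries. Markers of B and plasma cells, most of it immunoglobulin, summed to 5206 to 10462 CPM in osteopontin libraries and 5369 to 11742 CPM in null libraries. Null libraries 1 and A stood apart, since 12 fibroblast markers summed to 354.9 and 204.0 CPM there, against 7.63 to 29.5 CPM across the osteopontin libraries and 9.30 and 13.8 CPM in the remaining null libraries. The 10 endothelial markers summed to 139.5 CPM in osteopontin library B, against 59.5 to 84.6 CPM in the other osteopontin libraries, and reached 138.2 CPM in null library 2 and 141.0 CPM in null library B, against 83.9 and 79.3 CPM in the other null libraries. The 12 early stress genes summed to 305.8 to 356.2 CPM in osteopontin libraries 1, 2 and A and 502.7 CPM in osteopontin library B, against 488.5 to 542.6 CPM in the null libraries. The part of these differences in the results was not tested. In bulk RNA, fewer cells of a type and less RNA per cell cannot be told apart.

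The 77 genes took a similar share of the transcriptome in all 8 libraries. Summed over the genes, osteopontin libraries 1, 2, A and B held 1962, 2048, 2009 and 2037 CPM, against 1999, 2066, 1978 and 1964 CPM in the null libraries of those names (CPM on totals scaled by the trimmed mean of M values, TMM). The groups overlapped and averaged 2014 ± 38.4 CPM with osteopontin and 2002 ± 45.2 CPM in null (SD, n = 4 each), a difference of 12.3 CPM. As a share of all reads this was 0.196 to 0.204% in osteopontin libraries and 0.195 to 0.204% in null libraries. Large-subunit genes summed to 1324 ± 34.6 CPM with osteopontin and 1306 ± 45.4 CPM in null, and small-subunit genes to 690.1 ± 14.3 CPM with osteopontin and 695.6 ± 29.5 CPM in null (SD, n = 4 each). On the length-corrected scale (TPM, in which reads are first divided by transcript length), the ratio of summed large-subunit to summed small-subunit levels was 1.81 ± 0.0684 with osteopontin and 1.82 ± 0.137 in null (SD, n = 4 each). The median gene stood at 40.9 ± 2.89 TPM in the large subunit and 40.8 ± 1.65 TPM in the small subunit with osteopontin, and at 41.5 ± 1.70 TPM and 40.1 ± 3.68 TPM in null. The medians of the 2 subunits thus differed by less than the SD between libraries within each group.

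No mitochondrial ribosomal protein gene passed the test for a difference between osteopontin and null. By edgeR's quasi-likelihood test with Benjamini-Hochberg adjustment over all 18631 tested genes, 0 of the 77 passed an adjusted p of 0.05, and 0% of all tested genes passed it in either direction. At an unadjusted p under 0.05 the count was 0 of 77, against 3.93% of all tested genes and 5.27% of those of at least 5 CPM. DESeq2 also called 0 of the 77, against 80 of 30430 genes in all, and limma 0 of the 77, against 0 of 18631. Of the 77 fold changes, 39 were fitted above null and 38 below, with a median log2 fold change of 0.00, the same as the median over all tested genes. The extremes were -0.42 (Mrps33) and 0.36 (Mrps28). The intervals bound what this fit could have missed, for each gene by itself and given the spread among these libraries, which may be technical only. The 95% interval lay within 1.5-fold in both directions for 61 of the 77 genes (79.2%), against 76.1% of tested genes of at least 5 CPM, and within 2-fold for 76 of them (98.7%), against 93.7% of those genes.

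**Figure D1:**
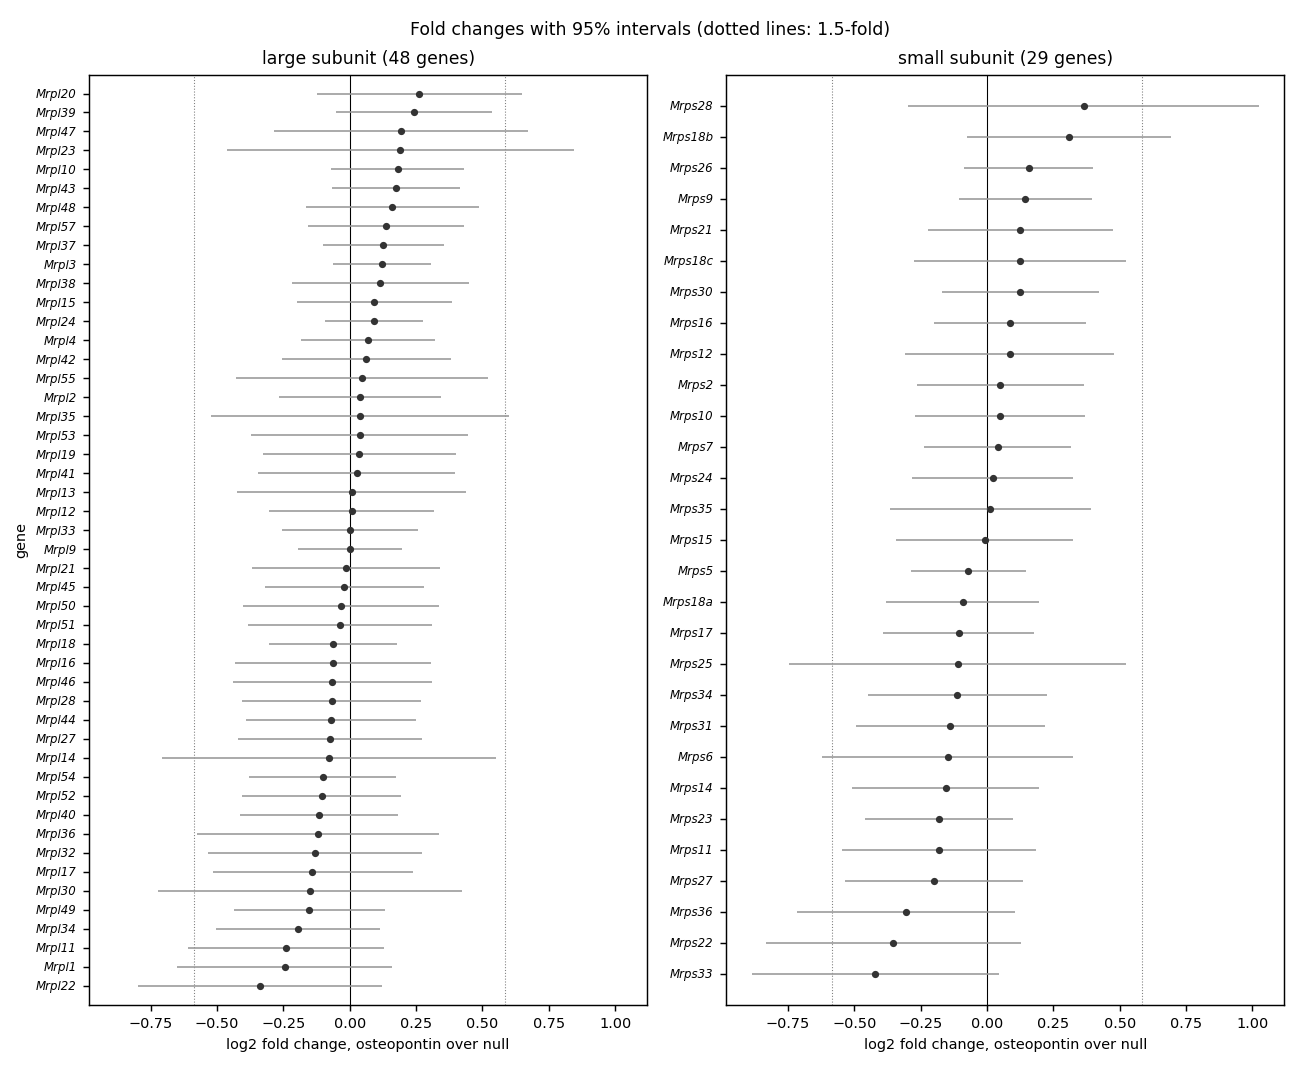
Points are log2 fold changes, osteopontin over null, of the 48 large-subunit and 29 small-subunit genes, each with its 95% interval from edgeR, and the dotted lines mark 1.5-fold. Every interval crosses 0, 39 points lie above 0 and 38 below, and the widest intervals belong to genes of low level such as Mrps28 and Mrpl23.

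Among small-subunit genes, Mrps33 had the smallest p. Its levels were 18.6, 20.01, 19.7 and 10.49 CPM in osteopontin libraries 1, 2, A and B, against 19.5, 23.3, 18.1 and 31.0 CPM in null libraries 1, 2, A and B. The B libraries gave both the lowest and the highest value, and the other 6 libraries overlapped between 18.1 and 23.3 CPM. The log2 fold change was -0.42 ± 0.22 (SE), with an unadjusted p of 0.0741 and an adjusted p of 0.9999 by edgeR.

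Mrps36, the 2-oxoglutarate dehydrogenase component, was the 1 gene of the 77 whose groups did not overlap in CPM. It stood at 10.4, 9.85, 8.73 and 10.47 CPM in osteopontin libraries 1, 2, A and B, against 12.2, 13.5, 11.1 and 11.9 CPM in the null libraries of those names. All 4 osteopontin values lay below the lowest null value, and the log2 fold change was -0.31 ± 0.19 (SE; edgeR adjusted p = 0.9999). In TPM the groups of Mrps36 overlapped, at 26.29 to 35.56 TPM with osteopontin and 32.96 to 40.82 TPM in null. Over all tested genes, 1.58% had every osteopontin library below every null library and 1.89% had every one above, while of the 77 genes 1 was below and 0 were above. Its 3 annotated pseudogene copies were listed at 0 in every library, except 1 copy at 0.204 CPM in osteopontin library 1.

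Other small-subunit genes with the smaller p-values had overlapping groups. Mrps18b, a paralog of the bacterial S18 family, had 19.3, 16.3, 23.4 and 25.2 CPM in osteopontin libraries 1, 2, A and B, against 13.1, 17.5, 18.7 and 18.5 CPM in null libraries, a log2 fold change of 0.31 ± 0.18 (SE). Mrps22 had 9.86, 11.1, 7.39 and 8.35 CPM with osteopontin and 8.71, 11.4, 12.9 and 13.8 CPM in null, a log2 fold change of -0.35 ± 0.23 (SE). For Mrps18b every osteopontin library but 2 lay above all null libraries. For Mrps22 osteopontin libraries A and B lay below all null libraries, and 1 and 2 lay within their range. Mrps23 averaged 37.4 ± 6.41 CPM with osteopontin and 42.5 ± 3.49 CPM in null (SD, n = 4 each), a log2 fold change of -0.18 ± 0.13 (SE). The 3 paralogs named Mrps18 did not move as a family. Beside Mrps18b, Mrps18a averaged 21.7 ± 1.72 CPM with osteopontin and 23.2 ± 1.30 CPM in null, and Mrps18c 16.9 ± 2.86 CPM with osteopontin and 15.5 ± 2.69 CPM in null (SD, n = 4 each). Their log2 fold changes were -0.09 ± 0.14 for Mrps18a and 0.13 ± 0.19 for Mrps18c (SE), and the sign of each turned in some alternatives. Mrps12, whose bacterial counterpart lines the decoding centre, averaged 16.9 ± 3.66 CPM with osteopontin and 15.9 ± 1.91 CPM in null (SD, n = 4 each), a log2 fold change of 0.09 that turned to -0.06 without osteopontin library B.

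In the large subunit, the smallest p belonged to Mrpl39, a protein with no bacterial counterpart. It had 26.9, 30.8, 27.9 and 27.6 CPM in osteopontin libraries 1, 2, A and B, against 26.7, 27.1, 22.1 and 19.9 CPM in the null libraries of those names. The osteopontin values were close together. Null library 2 lay within their range, null library 1 just below it and null libraries A and B further below. The log2 fold change was 0.24 ± 0.14 (SE; edgeR unadjusted p = 0.0989). Mrpl20 averaged 28.0 ± 6.69 CPM with osteopontin and 23.4 ± 4.70 CPM in null (SD, n = 4 each). Mrpl43 averaged 41.0 ± 3.22 CPM with osteopontin and 36.3 ± 3.47 CPM in null (SD, n = 4 each). The corresponding log2 fold changes were 0.26 ± 0.18 for Mrpl20 and 0.17 ± 0.11 for Mrpl43 (SE).

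Mrpl10, Mrpl12 and Mrpl11 belong to the stalk, the flexible arm that receives translation factors. Mrpl10, its anchor, averaged 47.7 ± 4.66 CPM with osteopontin and 42.1 ± 5.32 CPM in null (SD, n = 4 each). Mrpl12, the protein carried by the anchor, averaged 25.2 ± 3.10 CPM with osteopontin and 25.1 ± 3.41 CPM in null (SD, n = 4 each). Mrpl11, at the stalk base, averaged 15.2 ± 2.32 CPM with osteopontin and 17.98 ± 2.28 CPM in null (SD, n = 4 each). The log2 fold changes were 0.18 ± 0.12 for Mrpl10, 0.01 ± 0.15 for Mrpl12 and -0.24 ± 0.17 for Mrpl11 (SE), and all groups overlapped. Mrpl10 and Mrpl11 were among the genes named for small p-values in opposite directions, so their unlike signs are not a result about the stalk. Mrpl3 and Mrpl22 have bacterial counterparts that reach into the body of the subunit. They too were among the genes named for small p-values in opposite directions, so their signs are not a result about such proteins. Mrpl3, whose counterpart extends toward the peptidyl transferase centre, had 55.8, 62.5, 55.0 and 59.8 CPM with osteopontin and 52.9, 52.2, 55.8 and 53.5 CPM in null, a log2 fold change of 0.12 ± 0.09 (SE). Mrpl22, whose counterpart lines the exit tunnel, had 14.0, 18.4, 11.5 and 18.1 CPM with osteopontin and 14.9, 18.4, 17.2 and 27.9 CPM in null, a log2 fold change of -0.34 ± 0.22 (SE). With the deposited effective lengths as an offset, Mrpl3 turned to -0.04, and the median of the 77 genes moved to -0.06.

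Over all their transcripts, the 77 genes spanned a 25.3-fold range of levels although their products are present as single copies in a ribosome, apart from the repeated stalk protein Mrpl12. Over coding transcripts alone the range was wider, with means from 166.7 TPM for Mrpl52 to 1.56 TPM for Mrps25. The levels that follow are over all transcripts. Averaged over the 8 libraries, the median gene stood at 43.2 TPM, the middle 50% of genes lay between 25.2 and 59.9 TPM, and the 6 highest genes together held 22.9% of the summed TPM. The highest gene was Mrpl24, with 186.9, 213.8, 213.0 and 242.5 TPM in osteopontin libraries 1, 2, A and B, against 197.0, 175.9, 216.8 and 200.4 TPM in the null libraries. Mrpl52, a protein without a bacterial counterpart, followed with 174.2 ± 35.7 TPM with osteopontin and 179.2 ± 24.4 TPM in null (SD, n = 4 each). Mrps21 stood at 161.9 ± 37.5 TPM with osteopontin and 147.4 ± 31.2 TPM in null (SD, n = 4 each). Mrpl9, Mrps23 and Mrpl54 came next, at means of 117.2, 98.2 and 95.8 TPM over the 8 libraries. Along the order, only 5 of the 76 neighbouring pairs of genes were apart by more than the larger of their SDs, so ranks next to each other are mostly not resolved.

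At the low end were Mrpl19, Mrps28, Mrpl23, Mrpl35, Mrpl11 and Mrpl1, with means of 12.4, 11.8, 9.68, 9.06, 8.80 and 8.14 TPM. Over coding transcripts alone the lowest were Mrps25, Mrpl23, Mrpl35 and Mrpl32, at 1.56, 1.75, 2.73 and 2.96 TPM. Mrps26 stood at 69.2 TPM over all transcripts and 3.53 TPM over coding ones. Mrpl1, whose bacterial counterpart forms the mobile arm beside the tRNA exit site, had 7.80, 5.97, 6.60 and 6.77 TPM in osteopontin libraries 1, 2, A and B, against 7.66, 11.3, 9.06 and 9.96 TPM in null libraries. Its groups overlapped through the libraries named 1. Mrpl11 had 8.15 ± 1.14 TPM with osteopontin and 9.45 ± 1.14 TPM in null (SD, n = 4 each). The order was kept from library to library, as Spearman's rho between a library's TPM over the 77 genes and the mean of the other libraries was 0.930 to 0.969 in osteopontin libraries and 0.892 to 0.968 in null libraries, a description across genes. The transcripts are short, with a median over genes of 1288 bases for the longest protein-coding transcript, against 2648 bases over 21817 coding genes.

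**Figure D2:**
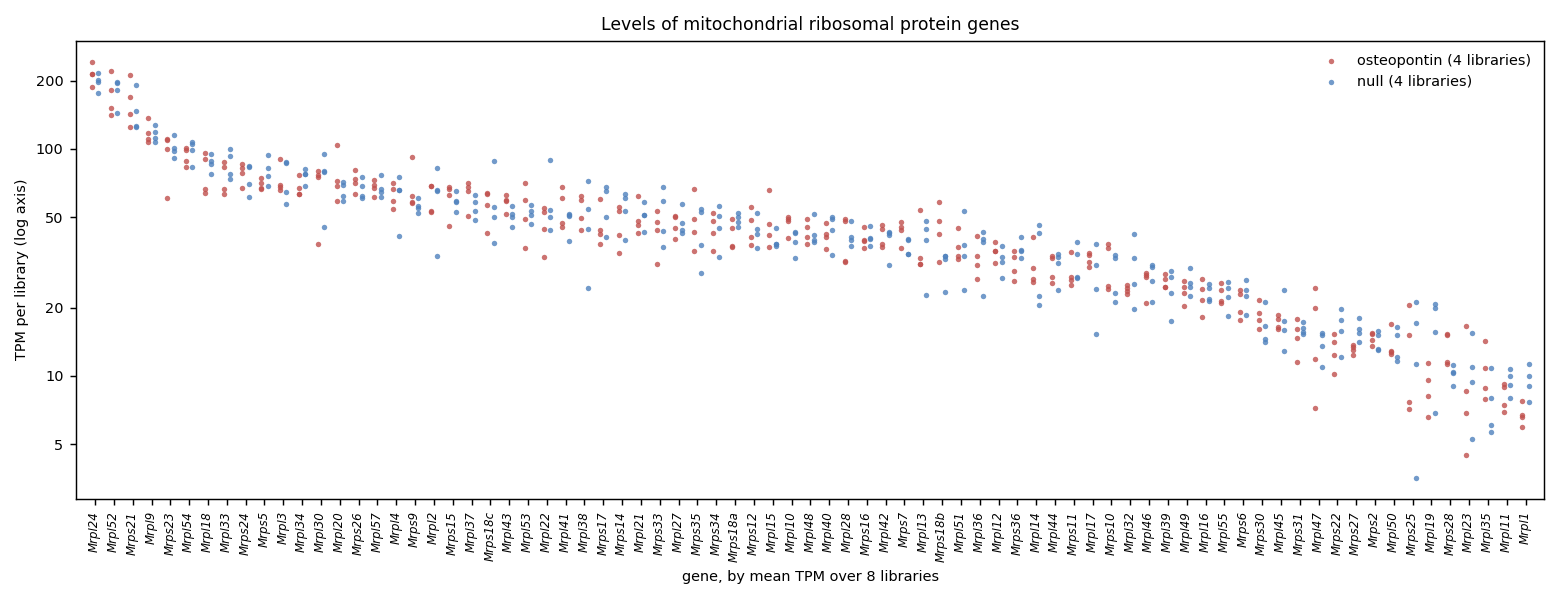
TPM per library on a log axis for the 77 genes in order of their mean, with osteopontin libraries drawn left of null libraries for each gene. Levels run from a mean of 205.8 TPM for Mrpl24 to 8.14 TPM for Mrpl1, and the groups lie over each other along most of the order.

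The level of a few genes was less repeatable than that of the rest. The median within-group SD over the 77 genes was 0.20 on the log2 CPM scale, against 0.17 for all tested genes of at least 5 CPM and 0.04 from counting alone at the median of 1455 reads per gene and library. Mrps25 had 12.03, 5.09, 9.57 and 9.61 CPM with osteopontin and 11.9, 10.3, 11.5 and 5.49 CPM in null, the largest spread (SD 0.53 on the log2 scale). Mrpl23 (SD 0.50), Mrpl14 (SD 0.49) and Mrpl30 (SD 0.47) followed. Mrpl14, a protein of the subunit interface, ran from 7.61 to 11.6 CPM with osteopontin and from 6.04 to 13.6 CPM in null. Mrpl30 was low in the B library of each group, at 15.9 CPM against 28.1 to 31.7 CPM in the other osteopontin libraries, and at 17.7 CPM against 32.7 to 34.7 CPM in the other null libraries. The B libraries also had the most enterocyte RNA, as 12 enterocyte markers summed to 96.3 CPM against 42.2 to 49.6 CPM in the other osteopontin libraries, and to 82.5 CPM against 44.5 to 50.7 CPM in the other null libraries. Their part in the level of Mrpl30 was not tested. The steadiest genes were Mrpl3 (SD 0.07), Mrps5 (SD 0.07), Mrps18a (SD 0.10) and Mrpl33 (SD 0.10). Mrps5, whose bacterial counterpart lines the entry channel for messenger RNA, averaged 39.2 ± 2.04 CPM with osteopontin and 41.2 ± 1.93 CPM in null, and Mrpl33 averaged 27.9 ± 1.79 CPM with osteopontin and 27.9 ± 2.10 CPM in null (SD, n = 4 each).

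Mitochondrial and cytosolic ribosomal proteins differed in how they varied between libraries. Over the 8 libraries the summed level of the 77 genes had a coefficient of variation of 1.97%, while that of 81 genes named as cytosolic ribosomal proteins, paralogs included, had 8.61%. Cytosolic genes moved as a block that followed the library names. Measured from each gene's mean, the median log2 deviation of the osteopontin libraries was 0.07, 0.06, -0.08 and -0.18 for the names 1, 2, A and B, while the null libraries gave 0.09, 0.19, -0.07 and -0.08 in that order. Thus in both groups the libraries named by digits were high and those named by letters low. The mitochondrial medians were -0.04, 0.05, 0.00 and 0.00 in osteopontin libraries and 0.01, 0.08, 0.01 and -0.01 in null libraries, with no such order. Between pairs of genes, with group means removed, the median Pearson correlation over the 8 libraries was 0.01 for the mitochondrial genes, 0.72 for the cytosolic genes and 0.00 for all genes of at least 5 CPM. These correlations are descriptions. They share libraries, and counting error weighs more on the mitochondrial genes, whose median level was 23.1 CPM against 367 CPM for the cytosolic ones. The cytosolic sum averaged 33248 ± 2760 CPM with osteopontin and 34532 ± 3340 CPM in null (SD, n = 4 each).

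**Figure D3:**
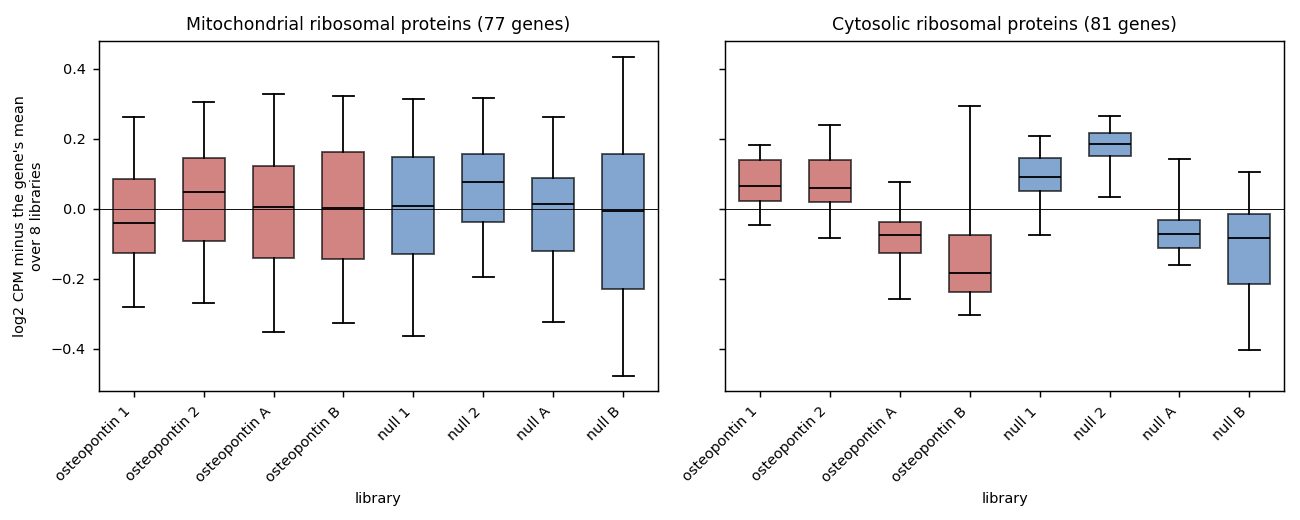
Boxes show the log2 CPM of each gene minus its own mean over the 8 libraries, for the 77 mitochondrial and 81 cytosolic ribosomal protein genes, with the median as a line, quartiles as box edges and the 5th and 95th percentiles as whiskers. Cytosolic medians are above 0 in libraries 1 and 2 and below 0 in libraries A and B of both groups, whereas mitochondrial medians stay between -0.04 and 0.08.

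The genes whose levels over the 8 libraries were most like the mean log2 CPM of the 77 were Gid4 (Pearson r = 0.95), Tyw1 (r = 0.95), Fam46a (r = 0.93), Klrb1c (r = 0.91) and Bola1 (r = 0.91). They were picked as the highest values among all genes of at least 5 CPM, and the mean they follow had an SD of only 0.03 on the log2 scale over the libraries, so the values are a description of these 8 libraries.

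Not all reads of these genes were assigned to coding transcripts. The 77 genes had 319 annotated transcripts, of which 160 were protein coding, 79 retained an intron, 58 were processed transcripts without a reading frame and 22 were targets of nonsense-mediated decay. Over all libraries the coding transcripts took 76.3% of the reads, retained-intron transcripts 14.6%, processed transcripts 4.89% and decay targets 4.201%. Osteopontin libraries 1, 2, A and B had coding shares of 77.01, 76.2, 76.0 and 75.8%, against 77.2, 77.2, 76.3 and 74.8% in null libraries, and averaged 76.3 ± 0.548% with osteopontin and 76.4 ± 1.13% in null (SD, n = 4 each). The groups overlapped. Processed transcripts took 5.14 ± 0.205% with osteopontin and 4.63 ± 0.411% in null (SD, n = 4 each), again with overlap.

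The noncoding reads were concentrated in some genes. In 12 of the 77 genes over 50% of the reads lay outside coding transcripts, and in 35 fewer than 10% did. Mrpl23 was the extreme, with 93.7% of its reads outside coding transcripts. Its level is uncertain, because the pseudogene Mrpl23-ps1 held 11.4 to 15.7 CPM in osteopontin libraries and 8.52 to 15.1 CPM in null libraries, above the means of 8.42 CPM with osteopontin and 7.38 CPM in null assigned to Mrpl23 itself, and reads common to both are divided by estimation. In Mrps26 the share was 79.8%, in Mrps14 70.1%, in Mrpl32 67.6% and in Mrpl3 61.9%. The coding share of Mrps26 was 22.8 ± 2.42% with osteopontin and 17.6 ± 5.19% in null, and that of Mrpl3 40.7 ± 5.95% with osteopontin and 35.5 ± 5.10% in null (SD, n = 4 each). Other genes had wider gaps, in both directions. Mrps9 had 57.0 ± 1.61% with osteopontin and 74.15 ± 9.18% in null, and Mrpl14 89.1 ± 8.04% with osteopontin and 78.6 ± 12.8% in null (SD, n = 4 each). Differences in coding share were not tested. In 59 of the 77 genes the same transcript was the most abundant in all 8 libraries. When levels were taken over coding transcripts alone, the median gene stood at 26.8 TPM, against 43.2 TPM over all transcripts.

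**Figure D4:**
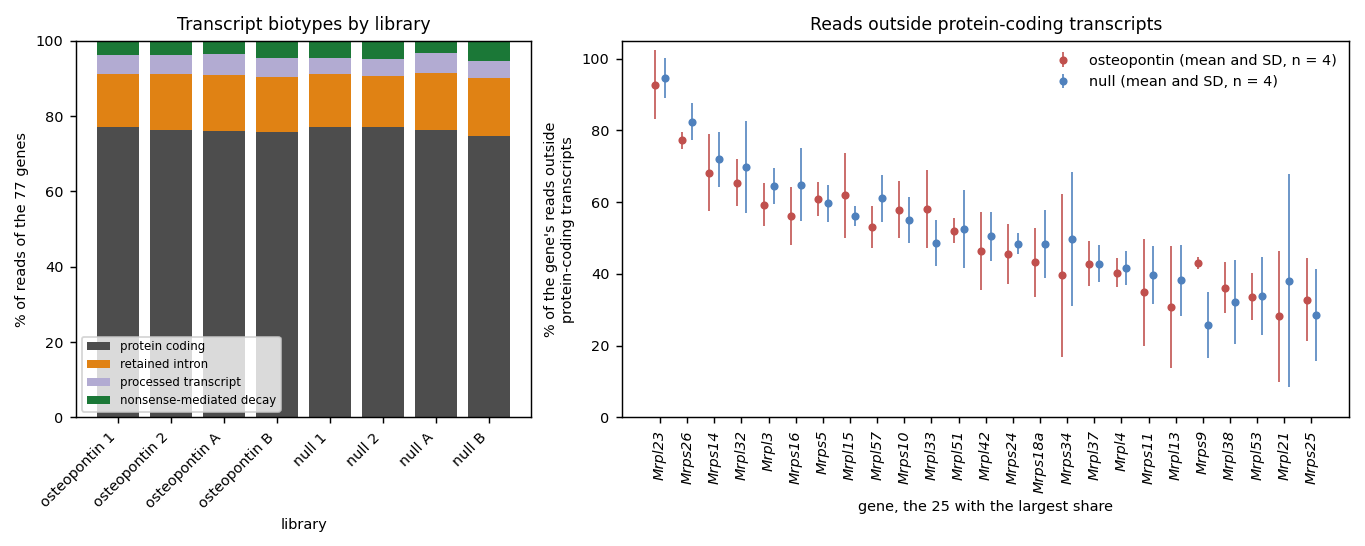
On the left, the share of the reads of the 77 genes by transcript biotype in each library. On the right, the share of reads outside protein-coding transcripts for the 25 genes where it is largest (mean and SD, n = 4 per group). Coding transcripts take 74.8 to 77.2% in every library, and Mrpl23 and Mrps26 have the largest noncoding shares.

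At the level of single transcripts, 244 of the 319 could be tested. By edgeR with Benjamini-Hochberg adjustment over 50650 transcripts, 0 of the 244 passed, and 0% of all transcripts did. At an unadjusted p under 0.05 there were 2 of the 244, against 1.98% of all transcripts. Both were coding. A 1234-base transcript of Mrpl24 had 40.3, 47.1, 66.5 and 64.2 CPM in osteopontin libraries 1, 2, A and B, against 39.6, 37.4, 43.3 and 40.4 CPM in the null libraries of those names. Its groups overlapped through osteopontin library 1, and the log2 fold change was 0.42 ± 0.16 (SE; edgeR adjusted p = 1.0). A 2309-base transcript of Mrpl3 had 16.6, 16.5, 16.4 and 22.3 CPM with osteopontin and 10.3, 11.4, 12.2 and 16.0 CPM in null, and all 4 osteopontin values lay above the highest null value (log2 fold change 0.50 ± 0.21, SE; edgeR adjusted p = 1.0). As shares of their genes' reads, the Mrpl24 transcript took 44.9% with osteopontin and 35.5% in null, and the Mrpl3 transcript 30.9% with osteopontin and 23.3% in null.

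The promoters of the 77 genes hold sequence features that the choice by symbol did not use. RefSeq promoter sequences of GRCm38.p6, from 250 bases before to 50 bases after the start, were matched by symbol for 68 of the genes. Searched on both strands, the letters CCGGAAG, a core of the sites bound by ETS factors such as GABP, stood in 25 of the 68 (36.8%), against 9.93% of all 27025 promoters and 22.9% of the 7578 promoters of coding genes of at least 5 CPM here. GCATGCGC, a core of the palindrome bound by nuclear respiratory factor 1 (NRF1), stood in 8 (11.8%), against 3.05% of all and 6.90% of expressed promoters. AAGATGGCG, bound by YY1, also stood in 8 (11.8%), against 1.64% of all and 4.37% of expressed promoters. CTACAANTC, a part of the element bound by THAP11, stood in 4 (5.88%), against 1.67% of all and 3.52% of expressed promoters. At least 1 of the ETS and NRF1 letters was present in 29 of the 68 (42.7%), against 12.4% of all and 28.0% of expressed promoters. Other motifs were no more common than elsewhere. The E-box CACGTG stood in 5 (7.35%), against 8.09% of all and 12.2% of expressed promoters. CCAAT stood in 27 (39.7%), against 41.1% of all and 42.6% of expressed promoters, and TATAAA in 5 (7.35%), against 15.7% of all and 7.79% of expressed promoters. GABP and NRF1 are the factors best known for driving nuclear genes of mitochondrial proteins. Matches are a description of letters in this window. The median level was 52.8 TPM for genes with the ETS letters and 31.9 TPM for those without, and 40.6 TPM with the NRF1 letters and 42.0 TPM without. These levels are over all transcripts, and the differences were not tested.

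The promoters of 6 genes are given as examples, each of 300 bases on the coding strand of its gene, with matches to the ETS, NRF1, YY1 and THAP11 letters in capitals. Mrpl24, Mrpl52 and Mrps21 are the 3 genes of highest level, Mrps18a and Mrps18b are paralogs with unlike matches, and Mrpl32 had 4 matches to the NRF1 letters, overlapping in part. They lie at chr3:87919294-87919593 (plus strand, Mrpl24), chr14:54426659-54426958 (plus, Mrpl52), chr3:95871465-95871764 (minus, Mrps21), chr17:46110754-46111053 (plus, Mrps18a), chr17:35916391-35916690 (minus, Mrps18b) and chr13:14612988-14613287 (minus, Mrpl32). Mrpl24, the highest gene over all transcripts, had the THAP11 letters and neither the ETS nor the NRF1 letters. Mrpl52 had 2 ETS matches and Mrps21 had 1. Mrps18a paired 1 ETS with 1 YY1 match, and Mrps18b had 2 NRF1 matches and 1 ETS match.
Mrpl24: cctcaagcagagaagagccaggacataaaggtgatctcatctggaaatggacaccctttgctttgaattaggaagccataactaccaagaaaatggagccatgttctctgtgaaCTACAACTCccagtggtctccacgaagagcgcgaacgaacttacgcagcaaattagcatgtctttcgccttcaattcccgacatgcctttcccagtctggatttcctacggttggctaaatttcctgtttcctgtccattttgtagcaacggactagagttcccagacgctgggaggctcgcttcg
Mrpl52: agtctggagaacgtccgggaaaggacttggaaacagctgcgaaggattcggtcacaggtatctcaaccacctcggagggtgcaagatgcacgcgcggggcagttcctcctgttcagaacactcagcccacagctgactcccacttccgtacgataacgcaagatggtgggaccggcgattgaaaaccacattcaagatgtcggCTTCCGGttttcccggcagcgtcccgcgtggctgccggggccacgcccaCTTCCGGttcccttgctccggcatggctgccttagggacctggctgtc
Mrps21: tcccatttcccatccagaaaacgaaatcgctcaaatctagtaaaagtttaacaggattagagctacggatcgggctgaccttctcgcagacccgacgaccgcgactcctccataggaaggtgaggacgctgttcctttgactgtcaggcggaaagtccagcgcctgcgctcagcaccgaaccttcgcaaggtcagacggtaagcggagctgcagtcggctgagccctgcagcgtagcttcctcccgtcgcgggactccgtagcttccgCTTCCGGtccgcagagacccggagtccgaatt
Mrps18a: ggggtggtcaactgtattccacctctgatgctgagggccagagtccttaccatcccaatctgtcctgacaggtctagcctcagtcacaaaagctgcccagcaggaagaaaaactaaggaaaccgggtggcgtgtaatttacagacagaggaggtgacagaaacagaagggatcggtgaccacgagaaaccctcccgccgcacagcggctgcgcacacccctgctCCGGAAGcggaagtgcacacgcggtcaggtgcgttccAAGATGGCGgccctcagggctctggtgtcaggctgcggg
Mrps18b: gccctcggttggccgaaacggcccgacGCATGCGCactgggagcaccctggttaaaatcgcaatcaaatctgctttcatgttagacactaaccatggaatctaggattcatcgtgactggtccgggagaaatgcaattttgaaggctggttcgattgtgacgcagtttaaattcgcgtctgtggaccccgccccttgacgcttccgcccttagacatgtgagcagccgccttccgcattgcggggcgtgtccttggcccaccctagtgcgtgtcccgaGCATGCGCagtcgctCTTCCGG
Mrpl32: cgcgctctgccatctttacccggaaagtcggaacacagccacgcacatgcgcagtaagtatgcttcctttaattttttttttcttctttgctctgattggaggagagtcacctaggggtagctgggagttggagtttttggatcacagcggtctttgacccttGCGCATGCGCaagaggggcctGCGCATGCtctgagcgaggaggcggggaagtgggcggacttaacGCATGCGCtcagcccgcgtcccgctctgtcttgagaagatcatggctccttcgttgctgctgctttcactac

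Many of the genes share a start region with a neighbour. In GENCODE M21 (GRCm38), 18 of the 77 genes (23.4%) had another protein-coding gene starting within 1000 bases upstream in the opposite direction. This held for 6.79% of 21951 coding genes and 11.3% of the 9892 coding genes of at least 5 CPM. Some neighbours act in translation or mitochondria themselves. Mrps12 starts 172 bases from Sars2, the mitochondrial seryl-tRNA synthetase, Mrps27 starts 81 bases from Ptcd2, a mitochondrial RNA-binding protein, and Mrpl49 starts 59 bases from Fau, which encodes a cytosolic ribosomal protein. Mrpl32 starts 75 bases from Psma2, a proteasome subunit. By their RefSeq starts on chromosome 7, Mrpl46 and Mrps11 lie 42 bases apart in opposite orientation, 1 gene for each subunit. In GENCODE M21 these genes overlap at their starts, so they are not among the 18. The 77 genes were spread over 17 chromosomes, with 10 on chromosome 11 and 8 on chromosome 17.

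Other genes of mitochondrial translation were also without a called change. The 6 tested mitochondrial ribosomal proteins with other names, Dap3, Ptcd3, Chchd1, Aurkaip1, Gadd45gip1 and Ict1, were fitted above null in 4 cases and below in 2, at a median log2 fold change of 0.00. Dap3, the small-subunit protein that binds GTP, averaged 44.5 ± 2.27 CPM with osteopontin and 44.4 ± 2.31 CPM in null (SD, n = 4 each). Ict1, a peptidyl-tRNA hydrolase built into the large subunit, averaged 52.3 ± 5.67 CPM with osteopontin and 60.3 ± 8.86 CPM in null, a log2 fold change of -0.21 ± 0.12 (SE) that turned to 0.16 over coding transcripts alone.

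Translation factors, assembly factors, tRNA synthetases, factors of mitochondrial DNA and RNA maintenance and regulators gave 0 called genes in each list. The list of 18 translation factors also held Letm1 and Cox20, whose main roles lie outside translation. Of these 18 genes, 6 were fitted above null and 12 below (median log2 fold change -0.04). Pdf, the mitochondrial peptide deformylase, had the smallest p, with 7.06 ± 2.24 CPM with osteopontin and 10.2 ± 1.56 CPM in null (SD, n = 4 each). Of 26 genes listed as assembly factors, 14 were above and 12 below (median 0.02). The 26 include Rpf2, a factor of the cytosolic ribosome. Eral1, the GTPase that protects the small ribosomal RNA during assembly, had 25.9, 23.5, 23.9 and 25.1 CPM in osteopontin libraries 1, 2, A and B, against 27.9, 28.5, 32.5 and 31.2 CPM in null libraries. Its groups did not overlap, the log2 fold change was -0.29 ± 0.12 (SE), and the adjusted p by edgeR was 0.9999. Malsu1, an assembly factor of the large subunit, also had groups without overlap, in the other direction, at 15.6, 14.4, 14.7 and 15.5 CPM with osteopontin and 10.7, 13.8, 13.0 and 12.2 CPM in null (log2 fold change 0.28 ± 0.17, SE; edgeR adjusted p = 0.9999). In the list of translation factors, Mtrf1 had no overlap, at 3.27 to 4.44 CPM with osteopontin and 4.56 to 6.61 CPM in null. Over all tested genes, 3.47% had no overlap in either direction. The list of 22 tRNA synthetases also held Qrsl1, Gatb and Gatc, which are subunits of an amidotransferase and not synthetases. Of these 22 genes, 15 were above and 7 below (median 0.05), with Pars2, for proline, at 13.0 ± 2.31 CPM with osteopontin and 17.3 ± 4.07 CPM in null (SD, n = 4 each). The log2 fold change of Pars2 was -0.41 ± 0.20 (SE) and turned to 0.10 with the effective-length offset and to 0.10 on log2(TPM + 1). Of 28 maintenance genes, 16 were above and 12 below (median 0.03), with Trmt10c, a subunit of mitochondrial RNase P, at 30.2 ± 5.70 CPM with osteopontin and 39.2 ± 9.52 CPM in null (SD, n = 4 each). Of 14 regulators, 6 were above and 8 below (median -0.04). Gabpb2, a partner subunit of GABP, averaged 432.6 ± 11.8 CPM with osteopontin and 396.2 ± 29.2 CPM in null. Nrf1 averaged 61.7 ± 5.90 CPM with osteopontin and 65.0 ± 9.37 CPM in null, and Gabpa 94.7 ± 4.36 CPM with osteopontin and 88.3 ± 4.94 CPM in null (SD, n = 4 each).

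The RNA partners of these proteins varied more between libraries. The large ribosomal RNA mt-Rnr2 had 790.5, 799.8, 788.1 and 1775 CPM in osteopontin libraries 1, 2, A and B, against 645.1, 716.8, 720.2 and 1383 CPM in null libraries. The small ribosomal RNA mt-Rnr1 had 266.6, 240.4, 275.4 and 1015 CPM with osteopontin and 257.8, 241.2, 244.1 and 616.3 CPM in null. Both RNAs were highest in the B library of each group. The log2 fold changes were 0.26 ± 0.40 for mt-Rnr2 and 0.40 ± 0.63 for mt-Rnr1 (SE), neither of them called. Compared by library name, mt-Rnr2 was higher with osteopontin for 4 of 4 names, though the labels do not say that the names pair libraries. With the name as a block the log2 fold change of mt-Rnr2 was 0.24 (edgeR adjusted p = 0.6451). Leaving out osteopontin library B while null library B stayed turned it to -0.13, and leaving out null libraries 1 and A turned it to -0.02. All mitochondrially encoded transcripts together took 1.56, 1.59, 1.82 and 1.36% of the reads in osteopontin libraries 1, 2, A and B, against 1.73, 1.98, 2.09 and 2.43% in null libraries, with overlap between osteopontin library A and null library 1. By library name this share was lower with osteopontin for 4 of 4 names, a difference that was not tested.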

How the data were processed

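Each library had 1 table deposited by the authors, which lists for every transcript an estimated count, a TPM value and an effective length, per the file headers. The submitters' processing notes name Salmon. Its version and the annotation and build it ran on are not given in the sources used. Of the transcripts of the 77 genes, 97.5% had the same identifier and length in GENCODE M21 (GRCm38). Estimated counts were summed per gene and rounded. Groups were compared with the two-sided quasi-likelihood test of edgeR 4.0.16 (robust fit, group as the only term, filterByExpr minimum count 10, TMM scaling), adjusted over all tested genes. The deposited TPM served for levels. The fits were tested on simulated data. Limma 3.58.1 and DESeq2 1.42.0 served as alternatives, and R 4.3.3, pandas 2.3.3, numpy 2.4.6 and scipy 1.17.1 were used. The 77 genes, the lists and the tests were chosen with earlier results of these data known.

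Named genes were the 6 highest and 6 lowest of the 77 by TPM and 6 always named. Among those of at least 5 CPM they were also the 6 with the smallest p in each direction, the 4 with the largest and the 4 with the smallest spread, and the 5 with the largest noncoding share. From each list the gene with the smallest p was named, and other genes were picked after their values were seen. Deviations from the group means correlated between libraries of the same name by 0.117, 0.169, 0.194 and 0.217 for names 1, 2, A and B. Between libraries of other names the values ran from -0.24 to 0.113. The same-name values are weak, so they do not settle whether the names pair the libraries, and the labels do not say what a name stands for. The main fit used no pairing, and a fit with the name as a block was among the alternatives. Protein features were not analysed here. Mrpl58 is listed under its older symbol Ict1 and is not among the 77.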

Additional observations from a re-analysis of the deposited data

Results flagged for a closer look

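In 90 groups of 4 libraries (45 measures), 6 held 1 library far from the other 3, where chance gives about 1 in 20. Mrps33 was lowest in osteopontin library B, at 10.49 CPM against 18.55 to 20.01 CPM in the other osteopontin libraries. Mrps23 was lowest in null library A, at 37.23 CPM against 43.81 to 44.63 CPM in the other null libraries. Mrpl30 was lowest in null library B, at 17.65 CPM against 32.67 to 34.65 CPM. Mrps18a was highest in null library A, at 25.12 CPM against 22.46 to 22.59 CPM. The ribosomal RNA mt-Rnr2 was highest in osteopontin library B, at 1775 CPM against 788.1 to 799.8 CPM, and in null library B, at 1383 CPM against 645.1 to 720.2 CPM. The 45 measures did not cover every gene reported here, so the 6 are not a full list. Not among them are mt-Rnr1, also highest in both B libraries, and Mrps9 in osteopontin library B. Mrps9 stood there at 66.14 CPM, against 47.65 to 47.91 CPM in the other osteopontin libraries.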

How the results depend on the processing

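None of the 77 genes was called in any of the 20 alternatives run on genes, and none of their transcripts in 11. Over all genes, DESeq2 called 80 of 30430, the fit without osteopontin library B 37 of 19815 and the fit without a filter 4 of 30430. The other alternatives called 0 or 1 gene each. Over all transcripts, DESeq2 called 377, the fit without osteopontin library B 2 and the others 0. The smallest adjusted p of the 77 over the alternatives, by edgeR, was 0.4823 (no filter on low counts). The replicate block by library name left the count of called genes at 0 and changed no other call (median log2 fold change 0.00, 38 fitted below null). The median log2 fold change moved to -0.062 with the effective-length offset (49 fitted below null) and stayed between -0.03 and 0.035 in the others. Genes at an unadjusted p under 0.05 numbered 1 without a filter, 3 with the effective-length offset, 1 on log2(TPM + 1), 2 without null libraries 1 and A, and 0 to 1 with single libraries left out. Genes without overlap numbered 2 without scaling (2.60%, against 3.53% of all tested genes), 2 over genes of at least 5 CPM (2.63%, against 3.54%), 2 on log2(TPM + 1) (2.60%, against 3.48%), 2 to 6 with single libraries left out (2.60 to 7.79%, against 5.95 to 7.58%), and 13 without null libraries 1 and A (16.9%, against 14.1% of all tested genes), where fewer libraries make overlap less likely. The genes without overlap on log2(TPM + 1) were Mrps27 and Mrps28, while Mrps36 overlapped there. The median level of 43.2 TPM was 26.8 TPM over coding transcripts and 30.4 on TMM-scaled reads per kilobase. Signs turned, with causes not tested, for Mrpl3 (-0.044 with the effective-length offset, -0.002 on log2(TPM + 1)), Mrps18a (0.084, coding transcripts), Mrps18c (-0.074 with the offset, -0.051 without null libraries 1 and A), Mrpl12 (-0.086, coding transcripts; -0.032 without null libraries 1 and A; -0.08 to 0.071 with single libraries left out), Mrps12 (-0.06 to 0.18 with single libraries left out), Ict1 (0.16, coding transcripts), Pars2 (0.10 with the offset, 0.10 on log2(TPM + 1)) and mt-Rnr2 (-0.017 without null libraries 1 and A; -0.13 to 0.58 with single libraries left out). Depth left counting error below the spread between libraries for the median gene.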
